A study of Rattus norvegicus with 17 samples.

Results

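Receptors for serotonin, dopamine, noradrenaline and acetylcholine were examined in the hippocampus of adolescent Long-Evans rats. They were taken from the count table by gene symbol: the serotonin receptors Htr1 to Htr7, the dopamine receptors Drd1 to Drd5, the adrenergic receptors of the alpha and beta families, the muscarinic receptors Chrm1 to Chrm5, and the alpha to epsilon subunits of the nicotinic receptors. This gave 49 of the 34322 genes of the table, with 14 for serotonin, 5 for dopamine, 9 adrenergic, 5 muscarinic and 16 nicotinic. RNA was sequenced from 17 rats whose dams received 1 of 3 diets from gestational day 0 to 20. The 5 Ethanol Treatment rats (ET; 3 males, 2 females) came from a dam given a liquid diet with 6.7% ethanol. The 6 Pair Fed rats (PF; 3 males, 3 females) came from a dam given liquid diet without ethanol in matched amounts, and the 6 Ad Lib Controls (AD; 3 males, 3 females) came from a dam given chow freely. All rats were 36 to 38 days old when the hippocampus was taken. Each diet was represented by 1 litter, so that diet and litter cannot be told apart, and the rats of a group were littermates.

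Serotonin, dopamine and noradrenaline reach the hippocampus through axons from the raphe nuclei, the midbrain and the locus coeruleus, and acetylcholine arrives mainly from the medial septum. Most of their receptors are coupled to G proteins: Gs-coupled receptors raise cyclic AMP, Gi-coupled receptors lower it, and Gq-coupled receptors activate phospholipase C. The exceptions are the serotonin channel subunits Htr3a and Htr3b and the nicotinic subunits, which assemble in groups of 5 around a cation channel. Nicotinic receptors of neurons are built from alpha and beta subunits such as Chrna4 with Chrnb2, or from Chrna7 alone, whereas the receptor of skeletal muscle combines Chrna1, Chrnb1 and Chrnd with Chrng in the fetus or Chrne in the adult.

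Between 10853947 and 17498392 fragments were counted per library (median 13538433). The study set aside 3 libraries that stood apart, namely ET replicate 2, AD replicate 4 and the PF animal 11f6 (for 2 PF males the labels do not give the replicate number, and the animal names 11f5 and 11f6 are used). The summed normalized count of 10 choroid plexus markers lay between 99012 and 125639 in these 3 libraries and between 97.8 and 16479 in the other 14. Fits between diets used those 14 libraries (4 ET, 5 PF, 5 AD), and values with all 17 are given where they moved an unadjusted p-value of a receptor across 0.05. AD replicate 6 stood apart by pineal genes, as described with the receptors that moved with them. Sex-linked genes matched the label in 15 libraries and did not in AD replicate 1 (labelled male) and AD replicate 2 (labelled female), so no result here rests on the sexes of AD. The 8 hippocampal neuron markers had summed normalized counts of 8508 to 18570, to which Spink8, at or below 6.05, added little. In bulk tissue, fewer cells of a type and less RNA per cell cannot be told apart.

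The receptor on which the comparison of diets turned was Chrnb1, and its promoter is shown with that of its muscle partner Chrna1, whose transcript stayed near the floor. Chrnb4 and Chrna3 are shown because both were high in a single library. Sequences are from RefSeq (build GRCr8), which held a promoter for 38 of the 49 receptors, and each run is the 250 bases before the annotated start. Capitals mark the E-box CANNTG in Chrnb1 and Chrna1 and the GC box GGGCGG, on either strand, in Chrnb4 and Chrna3. Chrnb1 lies at chr10:55015108-55015357, Chrna1 at chr3:78877354-78877603, Chrnb4 at chr8:64333110-64333359 and Chrna3 at chr8:64311252-64311501, all on the minus strand.
Chrnb1: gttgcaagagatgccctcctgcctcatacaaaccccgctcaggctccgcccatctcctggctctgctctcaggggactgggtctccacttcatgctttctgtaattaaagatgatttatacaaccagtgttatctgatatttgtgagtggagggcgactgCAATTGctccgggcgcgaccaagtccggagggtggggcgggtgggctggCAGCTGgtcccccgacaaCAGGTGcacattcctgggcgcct
Chrna1: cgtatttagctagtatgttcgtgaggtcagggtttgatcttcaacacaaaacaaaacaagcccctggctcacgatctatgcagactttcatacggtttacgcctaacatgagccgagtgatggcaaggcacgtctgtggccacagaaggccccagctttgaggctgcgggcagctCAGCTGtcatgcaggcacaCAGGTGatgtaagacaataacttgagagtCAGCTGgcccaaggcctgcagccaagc
Chrnb4: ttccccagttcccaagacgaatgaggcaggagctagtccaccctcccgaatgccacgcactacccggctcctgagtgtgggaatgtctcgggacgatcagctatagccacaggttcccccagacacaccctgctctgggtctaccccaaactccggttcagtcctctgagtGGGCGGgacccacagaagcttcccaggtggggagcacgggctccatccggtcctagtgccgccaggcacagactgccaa
Chrna3: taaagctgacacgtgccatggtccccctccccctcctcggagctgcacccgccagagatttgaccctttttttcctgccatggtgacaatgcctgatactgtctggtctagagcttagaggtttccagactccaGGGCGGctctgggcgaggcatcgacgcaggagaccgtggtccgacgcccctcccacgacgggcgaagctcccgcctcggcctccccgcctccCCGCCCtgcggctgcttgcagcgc
E-boxes are bound by basic helix-loop-helix factors, among them the myogenic factors of muscle. In Chrnb1 they began 90, 41 and 23 bases before the start, and in Chrna1 75, 56 and 27 bases before it. All 5 muscle-type subunits held an E-box in their 300-base window, as did 24 of the 38 receptors and 71.6% of 27457 promoters, so the motif is common. The GC box, bound by Sp1-type factors, was found in 20 of the 38 receptors and in 34.9% of promoters. No base was shared by an E-box and a GC box in these 4 windows. The homeobox core TAATCC, read by the pineal and retinal factors Crx and Otx, was found in 7.1% of promoters and in 0 of 5 receptors that were high in AD replicate 6 (Chrnb4, Chrna3, Adrb1, Adra1b and Drd4).

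Of the 49 receptors, 35 had more than 3 counts in every library, and 8 exceeded 3 counts in none, which was taken as the floor of detection (3 counts correspond to 1.71e-05% to 2.76e-05% of a library, for counting error only). The 8 were Drd3, Htr2b, Htr3b, Chrna6, Chrna9, Chrna10, Chrnd and Chrng. Low-count filtering left 35 receptors in each comparison, 34 of them in all 3. Htr1d was tested between ET and AD, and Htr1f in the comparisons with PF. The other 13 were tested in none, and besides the 8 at the floor these were Adra2b, Adrb3, Drd4, Chrna1 and Chrnb4. Values below are normalized counts, which are fragments scaled to a common library size by TMM. They compare libraries for the same gene. Gene lengths were not used here, and levels are not compared between genes.

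**Figure D1:**
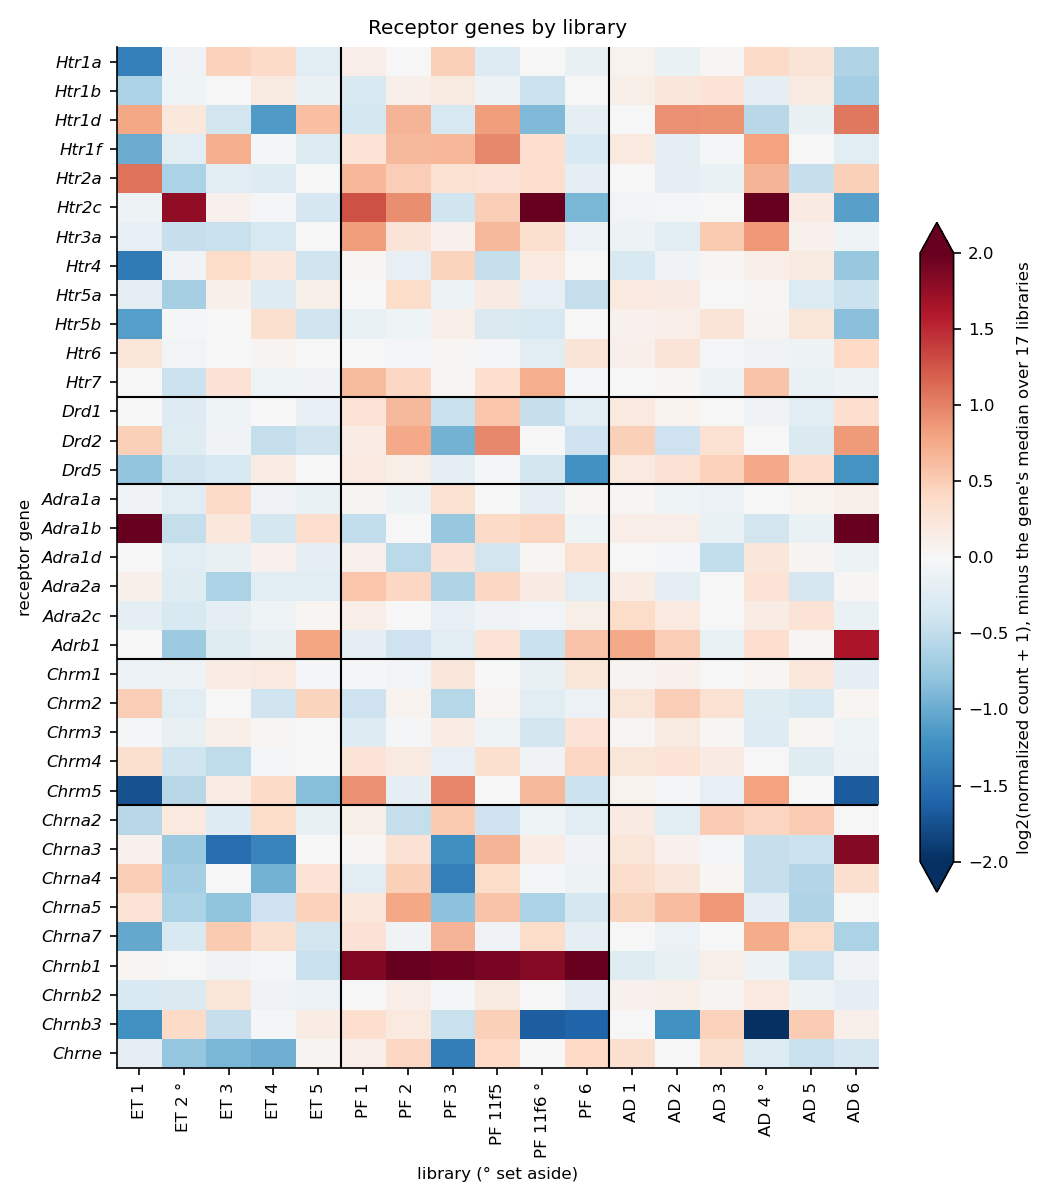
Each row is a receptor tested in at least 1 comparison (35 of 36 drawn) and each column a library, grouped by diet, with set-aside libraries marked by a ring. Colour is the log2 of the normalized count + 1 minus the gene's median over the 17 libraries. Chrnb1 is the row that is high in all 6 PF libraries, Htr2c is high in the 3 set-aside libraries, and Adra1b is high in ET replicate 1 and AD replicate 6.

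Between ET and PF rats, 1 of 35 tested receptors passed the threshold (adjusted p-value below 0.01 and absolute log2 fold change above 1.5), and it was lower in ET. Over all 16068 genes tested, 2.17% passed, and 2.13% were lower in ET. Between PF and AD rats, the same receptor, Chrnb1, was the 1 of 35 called, higher in PF, where 2.05% of 15960 genes were called and 2.02% were higher in PF. Between ET and AD rats, 0 of 35 receptors passed with edgeR, against 0.0127% of 15749 genes, and 1 of 35 had an unadjusted p-value below 0.05, against 2.74% of genes. DESeq2 called 0 of 46 receptors in that comparison, with 3 at an unadjusted p-value below 0.05, where it called 0.00818% of 24450 genes and had 1.43% at that unadjusted p-value. A share of 1 in 35 is near the share of all genes called, and it describes 1 gene and not the receptor families.

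Chrnb1, the beta subunit of the muscle-type acetylcholine receptor, was higher in every PF rat than in any other rat. It stood at 77.1, 86.2, 81.8, 79.0, 75.5 and 90.9 normalized counts in PF (the fifth being the set-aside animal 11f6). In ET it stood at 21.1, 20.6, 19.5, 20.0 and 14.8 (replicate 2 set aside). In AD it stood at 17.3, 18.5, 22.4, 19.1, 14.8 and 19.6 (replicate 4 set aside). The lowest PF library lay above the highest ET and AD libraries, whereas ET and AD covered the same range. In the set of 14 libraries the mean was 83.0 ± 5.59 (SD, n = 5) in PF, 18.9 ± 2.77 (n = 4) in ET and 18.5 ± 2.84 (n = 5) in AD. The log2 fold change was -2.13 for ET against PF (SE 0.12, 95% interval -2.41 to -1.86, adjusted p = 9.8e-07 by edgeR's quasi-likelihood test) and 2.16 for PF against AD (SE 0.11, interval 1.91 to 2.41, adjusted p = 6.5e-08). For ET against AD it was 0.02 (SE 0.17, interval -0.35 to 0.39). Both calls rest on the same PF litter. A fit without the genes that overlap a second annotated gene does not hold Chrnb1, because of the overlap described next. Groups without overlap were found for 1 of 35 receptors between ET and PF and between PF and AD, against 6.76% and 6.62% of all genes, and for 0 of 35 between ET and AD, against 1.21%.

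The difference in Chrnb1 was present in both sexes and both hemispheres of the PF litter. PF females stood at 77.1, 86.2 and 81.8 and PF males at 79.0, 75.5 and 90.9 normalized counts. The right hippocampi among them, of replicates 1 and 6, gave 77.1 and 90.9, and with left hippocampi only Chrnb1 remained the receptor called in both comparisons. The genes annotated beside Chrnb1 did not share its fold change. In GRCr8, Zbtb4, a zinc finger repressor on the opposite strand, shares 273 bases with the 15195-base span of Chrnb1. Fgf11, an intracellular fibroblast growth factor homolog on the same strand, ends 94 bases before that span, and the first 126 bases of the promoter shown lie inside it. The start used for that promoter lies inside the Chrnb1 span and not at its edge. Zbtb4 averaged 2262 ± 250 in ET, 2311 ± 95.6 in PF and 2328 ± 30.9 in AD (SD, n = 4, 5 and 5), with a log2 fold change of -0.03 for ET against PF (SE 0.07) and -0.01 for PF against AD (SE 0.04). Fgf11 averaged 301 ± 44.9, 359 ± 90.6 and 358 ± 61.4, with -0.26 (SE 0.17) and 0.00 (SE 0.16). Adjusted p-values of both neighbours were 0.69 or higher in these comparisons. Both had higher counts than Chrnb1, with SDs of 95.6 and 90.6 in PF. A step of as many counts as that of Chrnb1 could therefore not be seen in them. Reads of Chrnb1 and Zbtb4 in the shared bases cannot be assigned by strand with certainty, since the strand setting of the counting is not given in the sources used here.

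**Figure D2:**
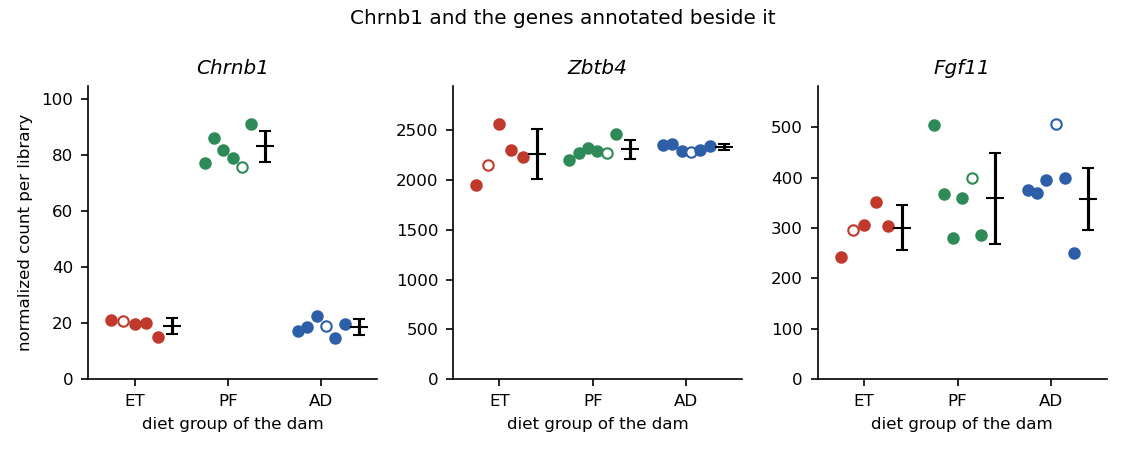
Normalized counts per library of Chrnb1 and of the genes annotated beside it, by diet group, with open circles for set-aside libraries and bars for the mean ± SD of the 14 others. Chrnb1 lies between 75.5 and 90.9 in the 6 PF libraries and at or below 22.4 in the 11 others, while Zbtb4 and Fgf11 overlap between groups.

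Of the partners of Chrnb1 in the muscle receptor, only Chrne was tested, and it was not called. Chrna1, Chrnd and Chrng were at or near the floor, were removed by the low-count filter and could not be called. Chrna1, which carries the main acetylcholine binding site, lay between 1.60 and 5.65 normalized counts in the 17 libraries and passed 3 counts in 7 of them. Chrnd was at 0 in 16 libraries, and Chrng reached 1.01 at most. Chrne, the adult subunit, was above the floor in all 17 libraries, at 4.14 to 16.9, with a log2 fold change of -0.63 for ET against PF (SE 0.37, interval -1.46 to 0.20) and 0.15 for PF against AD (SE 0.30, interval -0.52 to 0.81). Chrne overlaps other annotated genes, so part of its count may belong to them. A list of 6 skeletal muscle markers was read beside these values. Their summed normalized count was 210 to 305 in ET, 243 to 290 in PF and 255 to 315 in AD, with the groups overlapping. Most of that sum was the actin Acta1, at 131 to 199, followed by Des (29.0 to 80.0) and Myh2 (15.9 to 60.3), whereas the muscle enzyme Ckm and the troponin Tnnt3 never exceeded 3.02 and 3.12.

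Among the neuronal nicotinic subunits, Chrna4 and Chrnb2 form the main high-affinity nicotine site of brain, and neither was called. Chrnb2 stood at 369, 538, 432 and 418 in ET, at 457, 498, 444, 514 and 402 in PF and at 484, 496, 472, 425 and 399 in AD (set-aside libraries left out). These ranges overlapped, and the log2 fold changes were -0.07 (interval -0.32 to 0.17) for ET against PF, -0.05 (-0.29 to 0.18) for ET against AD and 0.02 (-0.15 to 0.20) for PF against AD. Chrna4 varied more between littermates, at 512, 364, 188 and 440 in ET, 312, 507, 140, 469 and 340 in PF and 465.8, 427, 372, 241 and 455 in AD. Its differences between diets were at most 0.15 in size, with intervals from -0.76 to 0.88. Chrna7, which forms a calcium-permeable channel of its own, averaged 175 ± 77.1 in ET (n = 4), 198 ± 52.8 in PF and 172 ± 40.6 in AD (n = 5 each), and its intervals ran from -0.83 to 0.66. Chrna2, Chrna5 and Chrnb3, auxiliary or regionally restricted subunits, had log2 fold changes between -0.40 and -0.07 in the 3 comparisons, and none was called. The direction for ET against PF turned with all 17 libraries in Chrnb3 (-0.30 to 0.02), Chrna2 (-0.07 to 0.00) and Chrna4 (0.09 to -0.02).

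Chrnb4 and Chrna3, the subunits of the ganglion-type receptor, were high in 1 rat. In AD replicate 6 Chrnb4 stood at 190 normalized counts, against 5.43, 6.50, 8.38, 4.49 and 7.39 in the other AD rats (the fourth being the set-aside replicate 4). It stood at 2.35, 6.45, 3.66, 4.52 and 6.78 in ET (replicate 2 set aside) and at 6.55, 3.51, 3.45, 4.57, 7.80 and 3.32 in PF (the fifth being the set-aside animal 11f6). All 16 other libraries were thus far below AD replicate 6. Chrna3 was there at 62.4 against 5.19 to 27.4. Chrna5, which is encoded in the same cluster, stood at 113 against 63.9 to 207 and did not share the excess. In GRCr8, Chrnb4 and Chrna3 both overlap the same annotated long noncoding RNA, so part of their counts may belong to it. For ET against AD the log2 fold change of Chrna3 was -1.14 (SE 0.56, interval -2.39 to 0.11). No other of the 35 receptors tested there exceeded 1 in size, and the value without AD replicate 6 is not given. The beta-1 adrenergic receptor Adrb1 stood at 95.5 in AD replicate 6 against 17.7 to 52.6. For PF against AD the log2 fold change of Adrb1 was -0.67 (SE 0.33, adjusted p = 0.36, edgeR), and without AD replicate 6 it was -0.31 (adjusted p = 0.62, edgeR). It was -0.69 with all 17 libraries, and its unadjusted p-value, which lay above 0.05 with 14, was 0.038 (edgeR). The Gi-coupled dopamine receptor Drd4 stood at 9.24 in AD replicate 6. Elsewhere it was at 0.67, 1.61, 0.31, 0.65 and 0.65 in ET (replicates 1 to 5), at 0, 0.64, 2.42, 0.65, 0 and 0 in PF and at 0.64, 1.30, 1.34, 0 and 0 in the other AD rats. The same library held pineal genes: Tph1, the serotonin-making enzyme of the pineal, at 12872 against 0 to 84.1, Asmt, which completes melatonin, at 357 against 8.24 to 16.8, and the pineal factor Crx at 203 against 0 to 2.68. Of the 10 pineal markers, 9 were highest in that library. The exception was Bhlhe22, which was lowest there at 1092 against 1219 to 3029 and made up most of the list's summed count in the 16 others (1344 to 3116, against 16516 in AD replicate 6). The habenula also uses Chrnb4 and Chrna3, and the 6 habenula markers in AD replicate 6 were within the range of the other libraries, though Gpr151 and Pou4f1 were low throughout, at or below 5.54 and 2.68. Striatal markers were also high in AD replicate 6, with Rgs9 at 216 against 37.4 to 89.4, Adora2a at 144 against 47.5 to 83.9, and a sum of 6 markers of 3464 against 1983 to 2965. The part of pineal, habenular or striatal RNA in the 4 receptors was not tested.

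**Figure D3:**
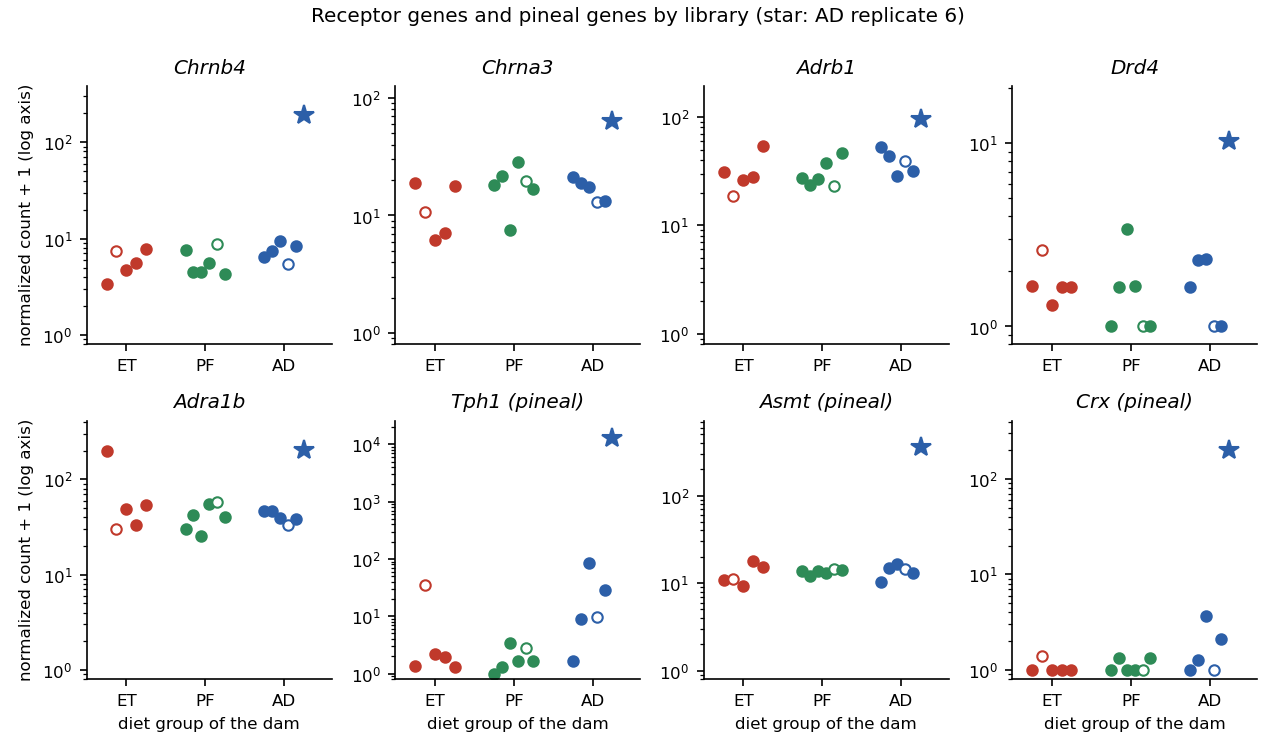
Normalized count + 1 on a log axis for 5 receptors and 3 pineal genes, by diet group, with AD replicate 6 drawn as a star and set-aside libraries as open circles. AD replicate 6 lies above every other library for Chrnb4, Chrna3, Adrb1, Drd4, Tph1, Asmt and Crx, and for Adra1b it lies beside ET replicate 1.

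In the muscarinic class all 5 receptors were tested, and 0 of 5 were called in any comparison. Chrm1, the Gq-coupled receptor of hippocampal pyramidal and granule cells, was the steadiest receptor of the 49 among those above the floor, with the highest of 14 libraries 1.34 times the lowest. It stood at 2149, 2599, 2667 and 2289 in ET, at 2304, 2249, 2741, 2334 and 2760 in PF and at 2418, 2484, 2325, 2700 and 2066 in AD. The groups overlapped, and all 3 intervals lay between -0.24 and 0.23. Chrm3, also Gq-coupled, stood at 1174, 1313, 1228 and 1208 in ET, at 1008, 1173, 1333, 1138 and 1459 in PF and at 1223, 1374, 1231, 1243 and 1142 in AD. Its intervals lay between -0.22 and 0.23, so that for both receptors a log2 fold change of 1 lay far outside the interval.

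Chrm2, the Gi-coupled autoreceptor of cholinergic terminals, stood at 342, 243, 184 and 333 in ET, at 183, 256, 163, 250 and 225 in PF and at 286, 343, 300, 195 and 248 in AD. It was lower in PF than in AD by an unadjusted p-value only (log2 fold change -0.36, SE 0.16, adjusted p = 0.28, edgeR), with overlapping groups. The difference was -0.30 with all 17 libraries, and its unadjusted p-value was 0.061 (edgeR). For ET against PF the log2 fold change was 0.36 (interval -0.08 to 0.79). Chrm4, Gi-coupled and known from striatal and hippocampal neurons, had differences of -0.25, -0.12 and 0.13 in ET against PF, ET against AD and PF against AD. Chrm5, the receptor of midbrain dopamine neurons, varied most in its class, from 17.1 to 118, and its log2 fold change of -0.66 for ET against PF had an interval of -1.63 to 0.30. Its lowest values, 17.1 and 18.1, were those of ET replicate 1 and AD replicate 6.

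Of the 14 serotonin receptors, 11 were tested in each comparison and 0 were called. Htr2c, the Gq-coupled receptor that is abundant in choroid plexus as well as in neurons, was high in the set-aside libraries. It stood at 2695 (ET replicate 2), 3958 (PF animal 11f6) and 3590 (AD replicate 4) there and at 372 to 1917 (median 773) in the other 14. The 3 libraries lay above all 14 others. Ttr, the transthyretin gene of choroid plexus, was at 87542 to 112029 in the same 3 libraries and at 36.1 to 14603 in the others. The part of choroid plexus RNA in Htr2c was not tested. Among the 14 libraries, Htr2c stood at 739, 837, 778 and 622 in ET, at 1917, 1504, 597, 1109 and 417 in PF and at 756, 768, 789, 882 and 372 in AD. The spread was widest in PF, where replicate 1 had 1917 Htr2c with 613 Ttr and replicate 2 had 1504 with 14603. The log2 fold change was -0.57 for ET against PF (interval -1.41 to 0.26, adjusted p = 0.68) and 0.64 for PF against AD (interval -0.17 to 1.44, adjusted p = 0.43).

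**Figure D4:**
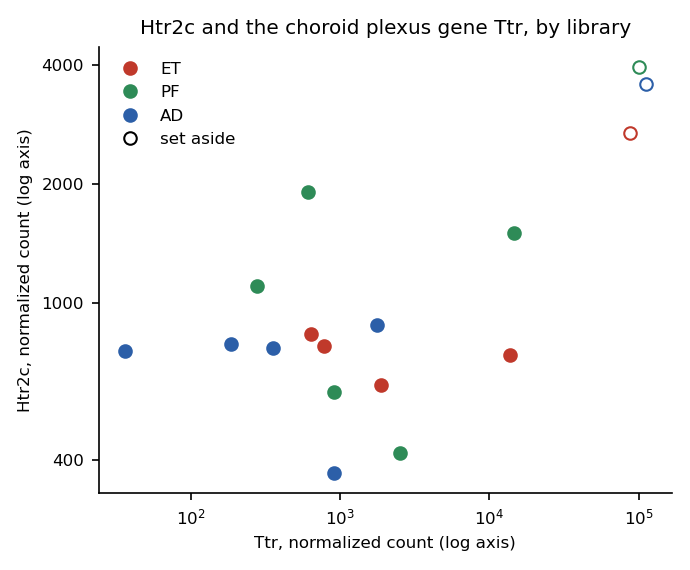
Each point is a library, with the normalized count of Ttr on the horizontal and of Htr2c on the vertical log axis, coloured by diet, and open for set-aside libraries. The 3 set-aside libraries lie at the upper right (Ttr from 87542 to 112029, Htr2c from 2695 to 3958), and PF replicate 1 combines high Htr2c (1917) with low Ttr (613).

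Htr1b, the Gi-coupled receptor of axon terminals, stood at 428, 672, 754 and 608 in ET, at 538, 712, 752, 620 and 665 in PF and at 721, 774, 806, 751 and 415 in AD. Its intervals in the 3 comparisons lay between -0.62 and 0.26. Htr1a, the Gi-coupled receptor of hippocampal principal cells, averaged 233 ± 109 in ET (SD, n = 4), 248.6 ± 52.7 in PF and 230 ± 48.1 in AD (n = 5 each). The log2 fold changes for ET against PF, ET against AD and PF against AD were -0.09, 0.02 and 0.11, none passed the test, and the intervals reached from -0.77 to 0.70. Htr4 and Htr6, both Gs-coupled, differed by at most 0.15 and 0.09 in size, and the interval of Htr6 stayed within -0.33 and 0.25 in all 3 comparisons.

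Htr3a, the channel subunit carried by interneurons, was lower in ET than in PF by an unadjusted p-value. It stood at 48.6, 39.7, 43.3 and 54.5 in ET, at 97.7, 65.1, 57.7, 86.5 and 50.1 in PF and at 50.8, 47.1, 78.7, 58.0 and 51.2 in AD. Of the 5 PF libraries, 4 lay above every ET library, and replicate 6 of PF lay within the ET range. The log2 fold change was -0.62 (SE 0.20, interval -1.07 to -0.17, adjusted p = 0.18, edgeR). With all 17 libraries it was -0.65 with an adjusted p = 0.049, which is still above the threshold of 0.01. For ET against AD it was -0.29 with 14 libraries (SE 0.17) and -0.50 with 17 (SE 0.20, adjusted p = 1.0, edgeR), where the unadjusted p-value was 0.029 and the set-aside AD replicate 4 stood at 100.3. Summed counts of 8 interneuron markers lay between 10050 and 11990 in ET and between 10995 and 12536 in PF, and their part in Htr3a was not tested. Its partner Htr3b was at or near 0 in all libraries.

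Htr7, Gs-coupled and expressed by CA3 and thalamic neurons, was higher in PF than in AD by an unadjusted p-value. It stood at 190, 163, 125, 155 and 119 in PF, at 122, 125, 114, 111 and 115 in AD and at 122.7, 150, 116 and 117 in ET. The AD values were close together, and 2 of 5 PF libraries overlapped them. The log2 fold change was 0.36 (SE 0.12, interval 0.09 to 0.62, adjusted p = 0.14, edgeR). With all 17 libraries it was 0.31 with an unadjusted p-value of 0.067 (edgeR), above 0.05. In that set ET against PF gave -0.41 with an unadjusted p-value of 0.024 (adjusted p = 0.23, edgeR), where 14 libraries gave -0.25 and a p-value above 0.05. Htr1f, a Gi-coupled receptor near the low-count filter, stood at 11.9, 15.6, 15.9, 19.6 and 7.63 in PF, at 11.2, 8.32, 9.38, 9.61 and 8.09 in AD and at 4.36, 16.5, 9.36 and 7.74 in ET. It passed the low-count filter only in the comparisons that hold PF, the group where it was high, so its difference of 0.58 for PF against AD (SE 0.23) is given as a description. PF replicate 6 lay below all AD values. The difference was 0.36 with all 17 libraries, and its unadjusted p-value, below 0.05 with 14, was 0.15 (edgeR). In both of these genes the set-aside AD replicate 4 was the highest AD library, at 183 for Htr7 and 17.6 for Htr1f.

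Of the 5 dopamine receptors, Drd1, Drd2 and Drd5 were tested and 0 of 3 were called. Drd1, the Gs-coupled receptor of dentate granule cells and striatal neurons, stood at 132, 124, 133 and 118 in ET, at 159, 207, 96.0, 195 and 113 in PF and at 152, 139, 132, 113 and 166 in AD. Drd2, its Gi-coupled counterpart, stood at 55.3, 37.5, 28.1 and 30.0 in ET, at 44.0, 68.0, 20.0, 78.0 and 29.5 in PF and at 55.3, 29.4, 49.2, 32.1 and 72.0 in AD. Both genes spread widest in PF, and the groups overlapped. The log2 fold changes for ET against PF were -0.28 (SE 0.21) for Drd1 and -0.35 (SE 0.38) for Drd2. Drd5, Gs-coupled and the dopamine receptor best known from hippocampus, lay between 12.9 and 53.5, with differences of -0.05, -0.34 and -0.29 in ET against PF, ET against AD and PF against AD.

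Of the 9 adrenergic receptors, 7 were tested and 0 were called. Adra1a, a Gq-coupled receptor of hippocampal interneurons, stood at 535, 738, 536 and 514 in ET, at 587, 524, 698, 564 and 571 in PF and at 571, 531, 518, 589 and 607 in AD. Adra1d, also Gq-coupled, stood at 655, 588, 695 and 579 in ET, at 697, 452, 802, 506 and 812 in PF and at 655, 646, 464, 678 and 609 in AD. The groups overlapped for both, and differences were at most 0.10 in size. Adra2c, a Gi-coupled autoreceptor, stood at 178, 180, 192 and 210 in ET and at 264, 236, 206, 247 and 187 in AD, and at 226, 205, 183, 195 and 221 in PF. Of the 5 AD libraries, 3 lay above every ET library. It was the 1 receptor with an unadjusted p-value below 0.05 between ET and AD (log2 fold change -0.27, SE 0.10, adjusted p = 1.0, edgeR). Adra2a, the other Gi-coupled receptor tested, differed by -0.40 for ET against PF (interval -0.93 to 0.13).

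Adra1b and Adra2b were each high in 2 libraries, beside different thalamus markers. Adra1b, Gq-coupled and strong in thalamus and pineal, stood at 198 in ET replicate 1 and 205 in AD replicate 6, against 24.2 to 56.4 in the 15 others. Its log2 fold change for ET against PF was 1.13 (SE 0.51, interval -0.00 to 2.26, adjusted p = 0.42, edgeR), and it rests on ET replicate 1, without which it was 0.22. Of the thalamus list, Ramp3 was also highest in these 2 libraries (311 and 290, against 68.4 to 197), whereas the thalamic factor Shox2 was low in both (2.01 and 3.08). Plekhg1 was lower there (213 and 377) than in the 15 others, and the sum of the 10 thalamus markers was 1731 in ET replicate 1, the lowest of the ET libraries, and 1829 in AD replicate 6. Adra2b, Gi-coupled and known from thalamus, stood at 36.3 in ET replicate 3 and 22.0 in the PF animal 11f6, where Shox2 was at 100 and 92.2. Elsewhere Adra2b lay at or below 11.3 and Shox2 at or below 64.1. The summed count of 10 thalamus markers was 1731 to 3383 in ET, 1436 to 2640 in PF and 1549 to 2040 in AD. The part of thalamic RNA in these receptors was not tested.

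ET replicate 1 and AD replicate 6 were also low for several other receptors. They were the 2 lowest of 17 libraries for Chrm5, Chrna7, Htr1a, Htr1b, Htr4 and Htr5b, which is 6 of 34 receptors examined, against 10.2% of 14882 genes. In Htr5b, a rodent serotonin receptor of CA1 and habenula, they stood at 124 and 149, against 202 to 333 in the 15 others. In Htr4 they stood at 48.3 and 76.3, against 93.0 to 177. Prox1, the granule cell factor, was at 110 and 244 in these libraries and at 304 to 683 in the rest, and the sum of 8 hippocampal neuron markers was 8508 and 10603, against 13102 to 18570. This pair was chosen after the values were seen. With both libraries left out, Chrnb1 remained the only receptor called between ET and PF and between PF and AD, and 0 were called between ET and AD, beside 2.21%, 2.23% and 0.0126% of all genes. An unadjusted p-value below 0.05 was then found for 5 receptors in ET against PF, 4 in ET against AD and 7 in PF against AD, beside 11.4%, 5.15% and 15.7% of all genes.

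Across the 35 receptors tested, the median log2 fold change was -0.12 for ET against PF, beside 0.01 over all genes, with 28 receptors below 0 and 7 above. It was -0.06 for ET against AD (24 below, 11 above; all genes 0.00) and 0.06 for PF against AD (14 below, 21 above; all genes -0.00). At an unadjusted p-value below 0.05 stood 2 receptors for ET against PF, beside 11.9% of genes, and 4 for PF against AD, beside 16.4%, of which Htr1f entered the test only through PF. The comparisons share libraries, and all receptors were counted in the same libraries. The directions are therefore independent neither between comparisons nor between receptors. The 95% interval lay within a log2 fold change of ±1 for 25, 27 and 28 of 35 receptors in ET against PF, ET against AD and PF against AD. For the remaining 10, 8 and 7 it reached beyond, Chrnb1 included in 2 comparisons, and these data do not bound the other differences to less than 1 on the log2 scale.

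**Figure D5:**
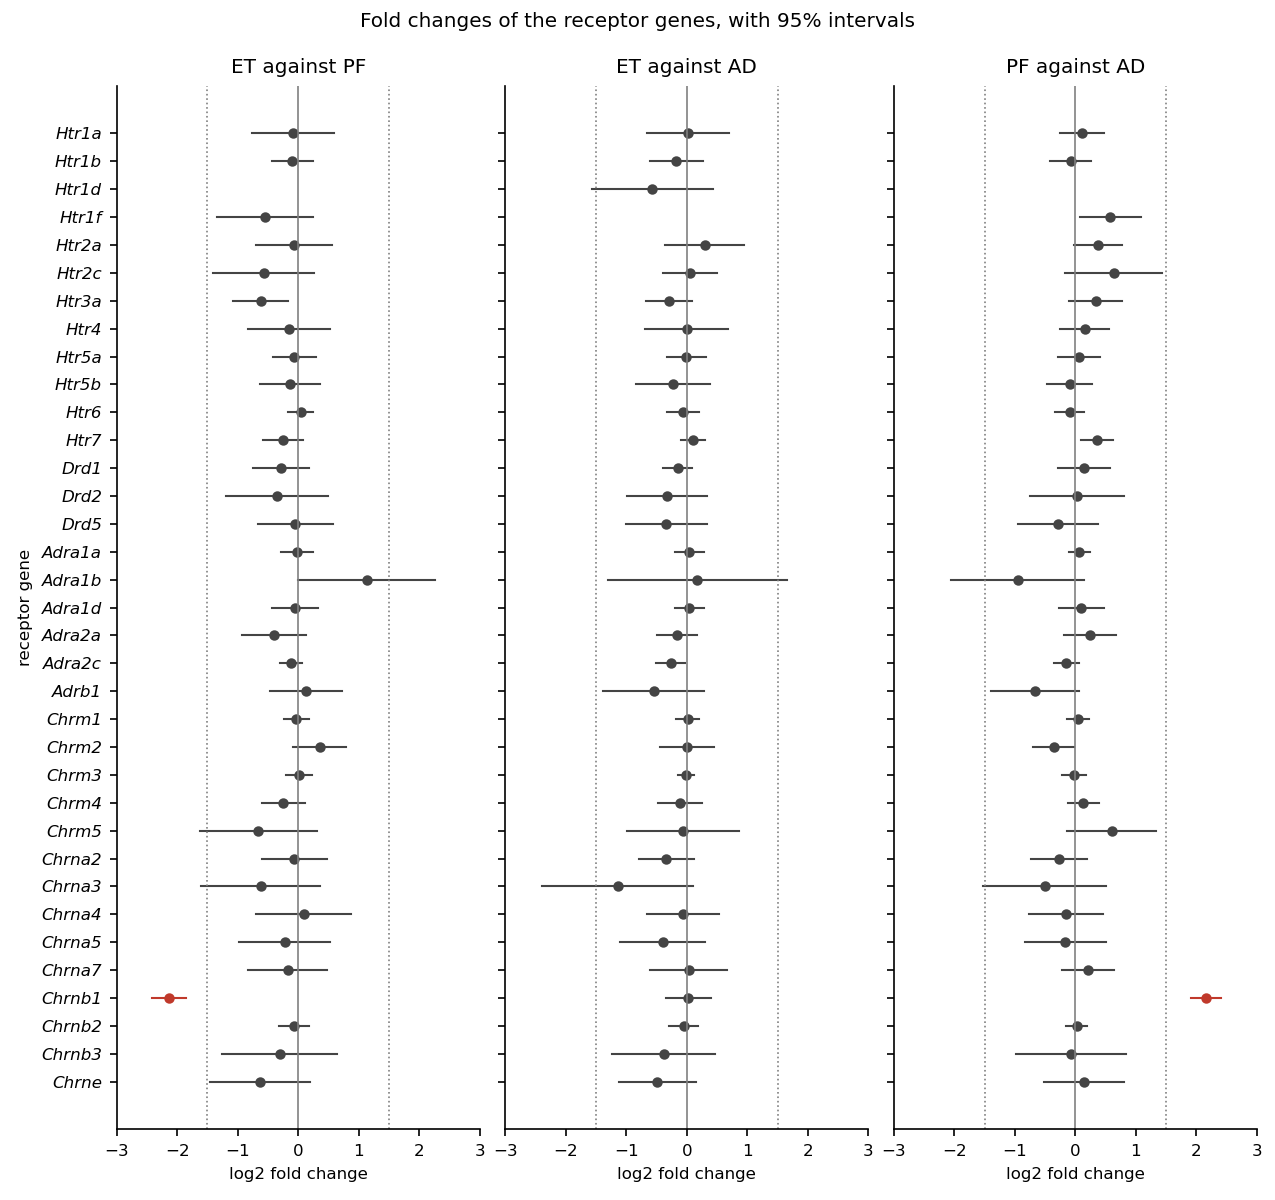
Log2 fold change (points) with the 95% interval (lines) of receptors tested in at least 1 of the 3 comparisons of the 14 libraries (35 of 36 drawn). Dotted lines mark ±1.5, and red marks called receptors. Chrnb1 is at -2.13 in ET against PF, 0.02 in ET against AD and 2.16 in PF against AD.

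The genes that make, carry and answer these transmitters were read from 8 lists with 100 names, of which 95 are in the table. They cover synthesis and transport of serotonin, catecholamines and acetylcholine, G proteins and adenylyl cyclases, phospholipase C and kinases, desensitization, nicotinic receptor assembly, and other aminergic receptors. Of the 81, 82 and 81 genes tested in ET against PF, ET against AD and PF against AD, 0 were called in either direction with edgeR, beside 2.17%, 0.0127% and 2.05% of all genes. Unadjusted p-values under 0.05 were found for 7, 3 and 11 of them, beside 11.9%, 2.74% and 16.4% of all genes. The nicotinic assembly list held 4 of the 11 in PF against AD, among 12 tested. From it and from the catecholamine list, Lrp4 and Qdpr were named after their values were seen, as those with the smallest adjusted p-values. Lrp4, the agrin receptor of the neuromuscular junction, differed by 0.28 for PF against AD (SE 0.08, adjusted p = 0.069, edgeR), and Qdpr, which regenerates the cofactor of the monoamine-making hydroxylases, by -0.23 (SE 0.06, adjusted p = 0.068, edgeR) and by 0.28 for ET against PF (SE 0.07, adjusted p = 0.077, edgeR).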

How the data were processed

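RNA was sequenced from 17 rat hippocampi (5 ET, 6 PF, 6 AD). The authors trimmed reads with fastp, mapped them to mRatBN7.2 with Bowtie2 2.4.2, and counted fragments on exons with featureCounts 2.0.1 (mapping quality of at least 10, with a read able to count for more than 1 feature). They deposited expected counts in form, that is, counts per gene averaged over 3 technical replicates and not normalized. Strand setting and annotation release are not given in the sources used here.

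Samples were grouped by the labels. Averaged counts were rounded, filtered with filterByExpr and scaled by TMM, and diets were compared pairwise in the 14 libraries of the study's final set by quasi-likelihood in edgeR 4.0.16 (R 4.3.3). P-values were adjusted by Benjamini-Hochberg over all genes tested. Standard errors are the absolute log2 fold change over the square root of F. DESeq2 1.42.0 and other settings were alternatives. Since each diet is 1 litter, p-values measure only the spread between littermates. Counts hold no molecular identifiers, and floors cover counting error only. Over 40 pairs of libraries of 1 diet, the smallest chi-square per gene was 3.05, so none was a repeat of another.

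Values were given in each of the 14 libraries for receptors called, for those at an unadjusted p-value below 0.05, for the 2 with the highest mean count in each class (not per length), and for those whose highest library was over 3 times the second or whose set-aside libraries were all highest; set-aside libraries were added for called receptors and the last 2 kinds; other receptors were named for their level. Of those tested, 1 receptor is counted in the totals but is not reported here. Receptors, lists and tests were chosen with earlier results of these data known. On simulated counts for ET against PF (15926 genes, 200 of them changed by a log2 fold change of 3), edgeR recovered 200 with 0 false calls and DESeq2 200 with 0. Of the 34322 symbols, 28874 matched the GRCr8 gene list (84.1%), 49 of 49 receptors among them. Of the 49, 17 overlap another annotated gene, so part of their counts may belong to it. Plots were drawn with matplotlib 3.10.9.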

Additional observations from a re-analysis of the deposited data

Results flagged for a closer look

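Values of single libraries were flagged where, within a diet group, the highest or lowest lay far from the rest by Dixon's criterion. Of 121 receptor and group pairs examined, 16 were flagged (13.2%), and chance flags about 1 in 20. Of the 16, 6 were AD replicate 6: the normalized count was 204.9 for Adra1b (other AD libraries 31.8 to 45.8), 95.5 for Adrb1 (27.5 to 51.8), 9.24 for Drd4 (0 to 1.34), 62.4 for Chrna3 (11.98 to 20.1) and 190.3 for Chrnb4 (4.49 to 8.38), and Htr5b was lowest there at 148.7 (276 to 318). Tph1 was at 12872 in that library. In ET replicate 1 there were 2, with 198.1 for Adra1b (other ET libraries 29.4 to 52.6) and 409.7 for Htr2a, the Gq-coupled serotonin receptor of cortical pyramidal cells (125 to 193).

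The set-aside libraries held 4, and there Ttr was at 87542 to 112029. Htr2c was at 2695 in ET replicate 2 (other ET libraries 622 to 837) and at 3590 in AD replicate 4 (372 to 882). AD replicate 4 also had 17.6 for Htr1f (8.09 to 11.2) and 182.6 for Htr7 (111 to 125). ET replicate 3 held 738.1 for Adra1a (481 to 536) and 36.3 for Adra2b (2.01 to 11.3), beside 100 for Shox2. The other 2 were low values: Chrnb1 at 14.8 in ET replicate 5 (19.5 to 21.1) and Chrne at 4.14 in PF replicate 3 (12.4 to 16.9).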

How the results depend on the processing

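The call of Chrnb1 kept its direction and side of the threshold under every alternative in which it was tested, with log2 fold changes of -2.20 to -1.97 for ET against PF (highest adjusted p = 0.0075) and 2.09 to 2.23 for PF against AD (highest adjusted p = 0.00019). Fits without the genes that overlap a second annotated gene did not hold Chrnb1 and left 0 receptors called in both comparisons, with 127 of 9283 and 122 of 9194 genes called, beside 349 and 327. An adjusted p-value below 0.05 with no fold threshold gave 664 and 825 genes and the same receptor. No other receptor was called under any alternative. With all 17 libraries in place of 14, the direction turned for 3 receptors in ET against PF (Chrnb3 from -0.30 to 0.02, Chrna2 and Chrna4), 7 in ET against AD and 1 in PF against AD, and the cause of reversals was not tested. Under the other alternatives direction was recomputed only for receptors with an unadjusted p-value below 0.05, Htr2c, Adra1b and Adrb1, and it turned only between ET and AD. For Chrm2 the log2 fold change was 0.0014 with DESeq2, 0.0011 with 1 fit of the 3 diets and 0.027 with left hippocampi only. With all 17 libraries it was -0.10 for Htr7 and -0.081 for Htr2c, and without ET replicate 1 and AD replicate 6 (added after seeing the data) it was -0.018 for Chrnb1 and -0.10 for Htr2c. Leaving out each library in turn gave -0.047 to 0.13 for Chrnb1, -0.13 to 0.15 for Chrm2 and -0.10 to 0.14 for Htr2c. With all 17 libraries the mean of Htr2c was 1134 in ET and 1193 in AD.

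Rats that share a replicate number are different animals of different litters, and their deviations correlated at 0.29 on average over 2 pairs of ET and PF, -0.05 over 3 pairs of ET and AD and -0.03 over 4 pairs of PF and AD, so the numbers were not taken as pairing. With the replicate block, Chrnb1 was -1.97 for ET against PF and 2.11 for PF against AD, Chrm2 was 0.24 and Htr2c -0.14 for ET against AD, and 197 genes in place of 349 were called between ET and PF. The order of receptor levels per length was not run, since no gene lengths were used. Depth limits the 8 receptors at the floor, for which no difference was detectable.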
